A study of Mus musculus with 24 samples.

Results

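The comparison described here asks whether irradiation changed gene expression differently in tumour myeloid cells of the labelled genotypes. It was made as an interaction, the irradiation effect in cKO (cKO IR minus cKO Ctrl) minus the irradiation effect in WT (WT IR minus WT Ctrl), over all 12 Input libraries out of 24 libraries in the series, and 16090 of 54446 gene identifiers had enough counts to be tested. Input libraries hold the polyadenylated RNA sequenced before pull-down with an antibody against N6-methyladenosine (m6A). The RNA came from CD11b+ myeloid cells, sorted from subcutaneous tumours of MC38, a mouse colon carcinoma line, and the labels name tumours or blood as the place of sorting in the growth protocol but MC38 tumours as the tissue of every library. WT mice were Ythdf2 fl/fl without Cre and cKO mice were Lyz Cre+;Ythdf2 fl/fl, both on the C57BL/6J background, so that both carried the floxed alleles and recombination in cKO was limited to cells that had expressed the lysozyme gene. Tumours were left untreated (Ctrl) or received 1 dose of 20 Gy, and cells were taken 3 days later (IR). Each of the 4 groups had 3 libraries. The methods describe adult mice of both sexes, name cells pooled from several mice for each replicate of this assay, and call the replicates technical in one place and biological in another, so that p-values measure the spread between libraries, which may be technical.

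YTHDF2 is a cytoplasmic protein that binds m6A in mRNA and brings the CCR4-NOT deadenylase to it, which shortens the poly(A) tail and starts decay. Transcripts with m6A can therefore last longer in cells that lack YTHDF2. Ionising radiation breaks DNA, activates p53 and halts proliferation, and it also changes which myeloid cells enter and leave a tumour. A positive interaction value means that the irradiation effect, in log2 units, was higher in cKO than in WT, which can come from a stronger rise, a weaker fall, or opposite changes. It is therefore read beside the effects in each genotype, which are given for the main genes and for every class plotted.

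Each Input library held between 65180075 and 83661576 gene counts. The share of reads that fell outside genes was 5.04 to 5.11% (Ctrl) and 5.70 to 6.55% (IR) in WT and 4.24 to 4.29% (Ctrl) and 3.95 to 4.14% (IR) in cKO. Counts of the targeted gene were not lower under the knockout label. These counts are summed over the whole gene, and whether its transcripts lacked the floxed exon was not tested. Ythdf2 had levels in CPM (counts per 1e+06 counts of the library after scaling) of 95.6, 96.8 and 98.1 in WT Ctrl, 105, 104 and 107 in WT IR, 174, 185 and 175 in cKO Ctrl and 231, 219.9 and 217 in cKO IR, so that all libraries labelled cKO were above all libraries labelled WT. Its interaction was 0.21 (SE 0.050, edgeR adjusted p 0.0036). Lyz2, the lysozyme gene that carries the Cre insertion, had CPM levels of 20586 (Ctrl) and 20745 (IR) in WT and 299.8 (Ctrl) and 409 (IR) in cKO (mean, n = 3 each), and every direction below rests on the labels. Itgam, which encodes CD11b, was abundant in every library, group means of summed T cell markers were at most 2.93 CPM and of B cell markers at most 9.03 CPM, and the summed erythroid markers were at 28.6 CPM in WT IR against at most 0.054 CPM in the other group means. Summed endothelial markers were at 182 (Ctrl) and 184 CPM (IR) in WT and 154 (Ctrl) and 118 CPM (IR) in cKO, an interaction of −38.4 CPM (exact permutation p 0.02, adjusted over 13 lists 0.13). Summed platelet and megakaryocyte markers were at 214 (Ctrl) and 295 CPM (IR) in WT and 208 (Ctrl) and 376 CPM (IR) in cKO, an interaction of 87.3 CPM (exact permutation p 0.30). The null of this permutation test is no irradiation effect in either genotype, so that its p-values are not for the interaction alone. The endothelial sum was mostly Vwf (39484 counts in WT Ctrl, Pecam1 next at 522), which was called lower at −0.46. No other tested endothelial marker was called, with Esam at −0.42, Cdh5 at −0.87, Kdr at −0.0035, Pecam1 at 0.30 and Tie1 at 0.44. The platelet sum was mostly Pf4 (39269 counts in WT Ctrl, Ppbp next at 5741). Pf4 (0.41) and Itga2b (1.06) were called higher, and Itgb3 (0.22), Gp6 (0.47) and Ppbp (−0.18) were not called. Both sums moved with the groups compared, and their part in the results was not tested. The spread between replicates was widest in WT IR, where a chi-square of counts over its degrees of freedom reached 49.8, and no pair of libraries agreed within sampling noise.

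In the interaction 4861 genes (30.2% of those tested) were called by edgeR's quasi-likelihood test at a Benjamini-Hochberg adjusted p under 0.05. Of these, 2411 were higher (15.0%) and 2450 were lower (15.2%). At an unadjusted p under 0.05, 6237 genes passed. Most differences were small. The median absolute value among the called genes was 0.37 on the log2 scale, 164 genes (1.02%) were higher by at least 1 and 110 (0.684%) were lower by at least 1. The median SE of the interaction was 0.079 for genes with a mean level of at least 5 CPM. Among the 4861 called genes, 3665 were called in the same direction in all 12 fits that left out 1 library. The median interaction over all tested genes was −0.00048, against which the medians of the gene classes below are read. Class counts are read beside the 15.0% higher and 15.2% lower over all genes. Calls also depended on level. Among protein-coding genes, the fifth with the lowest mean CPM had 3.04% called higher and 2.07% lower. In the fifth with the highest mean CPM these shares were 24.2% and 39.0%. The classes were not matched for level.

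**Figure D1:**
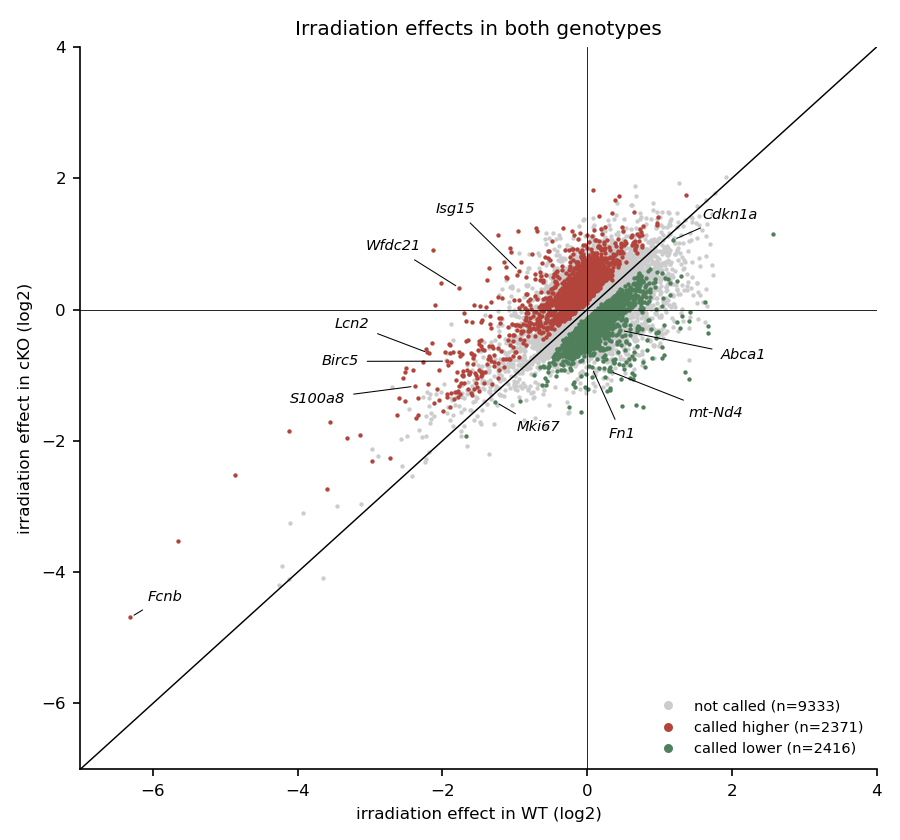
Irradiation effect in WT (x axis, log2) against that in cKO (y axis, log2) for the 14120 tested genes with at least 30 counts in every group, 1 point per gene, with the diagonal marking equal effects. The 2371 genes called higher lie above the diagonal and the 2416 called lower lie below it, and Fcnb, Lcn2, S100a8 and Birc5 fell in both genotypes.

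The 8 genes with the highest interaction among abundant protein-coding genes included several neutrophil and interferon-stimulated genes. Wfdc21, a small secreted protease inhibitor family member of neutrophils, had CPM levels of 29.6, 27.3 and 28.4 in WT Ctrl, 8.16, 8.05 and 8.84 in WT IR, 21.0, 22.2 and 22.3 in cKO Ctrl and 26.7, 28.9 and 26.7 in cKO IR. It fell by 1.77 in WT and rose by 0.33 in cKO, and no library of WT IR overlapped any other group. Its interaction was 2.095 (SE 0.085, edgeR adjusted p 2.5e-12). Lcn2, which encodes the iron-siderophore binding protein lipocalin 2, had CPM levels of 489.6, 478 and 497 in WT Ctrl, 99.997, 111 and 109.9 in WT IR, 232, 234 and 230.1 in cKO Ctrl and 150.2, 141 and 148 in cKO IR. The 4 groups did not overlap, and the level fell by 2.19 in WT and by 0.66 in cKO, with an interaction of 1.53 (SE 0.054, edgeR adjusted p 5.1e-13). Fcnb, a ficolin of immature myeloid cells, fell by 6.31 in WT and by 4.69 in cKO, with an interaction of 1.62 (SE 0.30, edgeR adjusted p 3.6e-04). Its mean CPM levels were 18.9 (Ctrl) and 0.237 (IR) in WT and 6.54 (Ctrl) and 0.255 (IR) in cKO. Only 47 counts were left in WT IR and 53 in cKO IR. Its WT and cKO libraries overlapped after irradiation, and the interaction came with an untreated level that was lower in cKO. Slfn1 (a Schlafen family gene, 1.53), Isg15 (1.52), Lrg1 (1.36), Trem3 (1.36) and the uridine phosphorylase gene Upp1 (1.26) completed the 8. All of the 8 lowest genes by the same rule were transcripts of the mitochondrial genome, from mt-Nd4 at −1.24 to mt-Nd2 at −0.95.

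**Figure D2:**
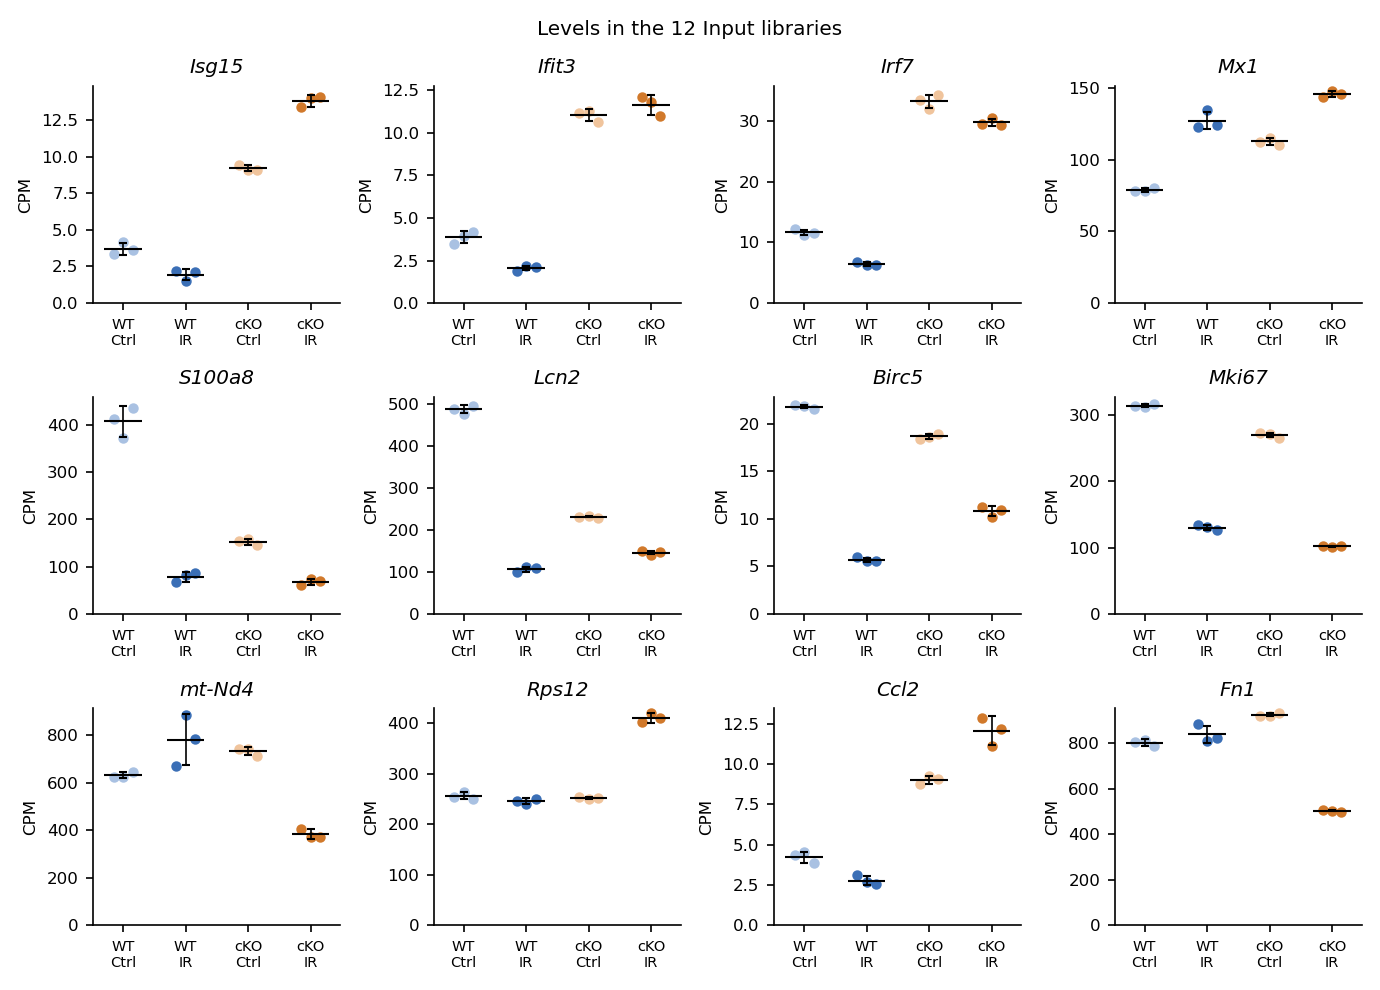
Levels in CPM (y axis, from 0) of 12 genes in the 4 groups (x axis), with 1 point per library, the mean as a horizontal line and the SD as an error bar (n = 3). Isg15, Ifit3 and Irf7 fell in WT, S100a8, Lcn2 and Birc5 fell in both genotypes with a smaller log2 fall in cKO, and mt-Nd4 and Fn1 were lowest in cKO IR.

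Type I interferon-stimulated genes mostly had a positive interaction. Of 58 tested, 33 were called higher and 3 lower, with a median interaction of 0.34. The median irradiation effect was −0.31 in WT, where 37 fell and 6 rose, and 0.029 in cKO, where 13 fell and 15 rose. Over all tested genes 31.7% were called in WT (14.7% rose and 17.0% fell) and 45.6% in cKO (21.8% rose and 23.8% fell). Interferon-stimulated genes encode antiviral effectors and are switched on by signalling from the interferon receptor. Isg15, a ubiquitin-like modifier, had CPM levels of 3.33, 4.18 and 3.60 in WT Ctrl, 2.17, 1.504 and 2.14 in WT IR, 9.46, 9.11 and 9.07 in cKO Ctrl and 13.4, 13.98 and 14.1 in cKO IR. It was lower in all 3 WT IR libraries than in any WT Ctrl library and higher in all cKO IR than in any cKO Ctrl library, with effects of −0.94 and 0.59 and an interaction of 1.52 (SE 0.16, edgeR adjusted p 5.4e-07). Ifit3, an RNA-binding antiviral protein whose reads can be shared with a close paralog, had CPM levels of 3.49, 3.95 and 4.16 in WT Ctrl, 1.90, 2.17 and 2.12 in WT IR, 11.2, 11.3 and 10.7 in cKO Ctrl and 12.1, 11.9 and 10.97 in cKO IR. WT IR lay below WT Ctrl without overlap, while cKO IR and cKO Ctrl overlapped, and the interaction was 0.98 (SE 0.13, edgeR adjusted p 1.0e-05). Ifi27l2a had CPM levels of 9.38 (Ctrl) and 6.001 (IR) in WT and 18.6 (Ctrl) and 25.6 (IR) in cKO (means), with an interaction of 1.10 (SE 0.11, edgeR adjusted p 4.8e-07). Irf7, a transcription factor that is itself induced by interferon, had CPM levels of 12.2, 11.3 and 11.6 in WT Ctrl, 6.81, 6.27 and 6.21 in WT IR, 33.5, 32.1 and 34.3 in cKO Ctrl and 29.6, 30.6 and 29.5 in cKO IR. It fell in both genotypes without overlap between Ctrl and IR, by 0.86 in WT and by 0.16 in cKO, and the interaction was 0.70 (SE 0.084, edgeR adjusted p 2.7e-06). Mx1, an antiviral GTPase, went the other way, with CPM levels of 77.7, 77.8 and 80.0 in WT Ctrl, 123, 134 and 124 in WT IR, 112, 115 and 110.4 in cKO Ctrl and 144, 148 and 146 in cKO IR. It rose by 0.70 in WT and by 0.37 in cKO, and its interaction was −0.32 (SE 0.053, edgeR adjusted p 1.0e-04). For Rsad2, an antiviral enzyme, the interaction of 0.35 (SE 0.12, edgeR adjusted p 0.029) was called in 6 of the 12 fits that left out 1 library.

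To show the promoters behind these genes, 100 of the 250 bases before the annotated start were taken from RefSeq on GRCm38.p6 for interferon-induced genes whose interaction was called higher. The motif searched was GAAANNGAAA, the core of the interferon-stimulated response element, on both strands of the 250 bases before the start (TTTCNNTTTC where it lies on the other strand), and capitals mark its matches, which overlap where they are in a row. The sequences are written 5′ to 3′ on the strand of the gene.
Isg15: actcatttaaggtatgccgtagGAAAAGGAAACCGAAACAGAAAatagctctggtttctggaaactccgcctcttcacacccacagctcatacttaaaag
Ifit3: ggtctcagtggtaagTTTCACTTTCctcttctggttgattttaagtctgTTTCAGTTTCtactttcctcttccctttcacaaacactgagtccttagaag
Cxcl10: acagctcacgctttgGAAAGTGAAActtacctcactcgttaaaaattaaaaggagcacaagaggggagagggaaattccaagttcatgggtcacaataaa
Rsad2: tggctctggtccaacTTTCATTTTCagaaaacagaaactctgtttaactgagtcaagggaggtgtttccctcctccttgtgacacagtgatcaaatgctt
Irgm1: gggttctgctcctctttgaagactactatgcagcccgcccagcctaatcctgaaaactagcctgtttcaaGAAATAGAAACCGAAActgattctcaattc
These windows lie at chr4:156200819-156200918 (minus strand) for Isg15, chr19:34583358-34583457 (plus strand) for Ifit3, chr5:92349018-92349117 (minus strand) for Cxcl10, chr12:26456488-26456587 (minus strand) for Rsad2 and chr11:48871421-48871520 (minus strand) for Irgm1. Isg15 held 3 overlapping matches within 100 bases of its start, and Ifit3 held 2 matches apart from each other. Of 45 class members with a RefSeq promoter, 21 (46.7%) held a match, against 3.46% of all 27025 genes with one and 3.43% of 10745 tested genes with one. The share was 13 of 27 (48.1%) for members called higher and 8 of 17 (47.1%) for members not called.

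Other interferon classes had fewer called members. Of 16 interferon-inducible GTPases, which attack the vacuoles of intracellular pathogens, 5 were called higher and none lower, with a median of 0.063, and 1 of the 5 calls held in all 12 fits that left out 1 library. Ifi47, whose call held in all 12, was at 0.50 (SE 0.12, edgeR adjusted p 0.0039), and Gbp2 was at 0.059 (SE 0.054, edgeR adjusted p 0.46) and was not called. Irgm1, shown above, was at 0.23 and was called in 7 of the 12. Of 26 interferon sensors, receptors and transcription factors, 2 were higher and 7 lower, with a median of −0.021. Jak2, a kinase of cytokine receptors, rose by 0.55 in WT and by 0.24 in cKO, with an interaction of −0.31 (SE 0.052, edgeR adjusted p 1.1e-04), and Irf2, a repressor of interferon promoters, was at −0.35 (SE 0.061, edgeR adjusted p 1.9e-04). The receptor subunit gene Ifnar1 (−0.10, adjusted p 0.13) was not called by edgeR.

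Genes of neutrophils and their precursors mostly fell after irradiation, 14 of 18 primary granule genes in WT and 11 in cKO, and 26 of 28 mature neutrophil genes in WT and 20 in cKO. Of the primary granule and progenitor genes, 11 were higher and 1 lower in the interaction, with a median of 1.39 and median effects of −2.08 in WT and −1.56 in cKO. The higher calls came to 7 without cKO IR replicate 1, to 8 with the replicate number as a block and to 7, with none lower and a median of 1.01, with an offset for exonic length, described below. Under 30 counts in a group were held by 7 of these 18 members. Of the mature neutrophil genes, 17 were higher and none lower, with a median of 0.60 and median effects of −2.13 and −1.08, and the length offset gave 13 higher, 3 lower and a median of 0.33. S100a8, a subunit of the calcium-binding protein calprotectin, had CPM levels of 413, 373 and 437 in WT Ctrl, 66.8, 82.2 and 86.4 in WT IR, 154, 159 and 146 in cKO Ctrl and 61.4, 74.2 and 69.0 in cKO IR. Every irradiated library was below every untreated one, the WT and cKO libraries overlapped after irradiation, and the interaction of 1.21 (SE 0.11, edgeR adjusted p 1.1e-07) came with an untreated level that was lower in cKO than in WT. The chemokine receptor gene Cxcr2 had CPM levels of 18.3 (Ctrl) and 5.61 (IR) in WT and 7.26 (Ctrl) and 3.63 (IR) in cKO (means), with an interaction of 0.71 (SE 0.11, edgeR adjusted p 7.7e-05). Csf3r, the receptor for the growth factor of neutrophils, fell by 0.58 in WT and by 0.63 in cKO, and its interaction of −0.054 (SE 0.053, edgeR adjusted p 0.50) was not called. Ly6g, a marker of mouse neutrophils, was at −0.044 (SE 0.31, edgeR adjusted p 0.94), also not called. Chil3, a chitinase-like secreted protein, had CPM levels of 546, 514 and 551 in WT Ctrl, 123, 153 and 151 in WT IR, 335, 344 and 325 in cKO Ctrl and 181, 194 and 185 in cKO IR. The 4 groups did not overlap, and the interaction was 1.07 (SE 0.081, edgeR adjusted p 1.6e-08). Serpinb1a, an inhibitor of neutrophil elastase, rose by 0.60 in cKO and was at 0.027 in WT, with an interaction of 0.57 (SE 0.072, edgeR adjusted p 5.4e-06). In these bulk libraries fewer cells of a type and less RNA per cell cannot be told apart. The summed markers of mast cells and basophils (21.96 and 3.398 CPM in WT and 8.75 and 1.89 CPM in cKO, before and after irradiation) and of eosinophils (23.8 and 4.33 CPM in WT, 12.2 and 3.53 CPM in cKO) had their group means in the same order as S100a8, and their part in the result was not tested.

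Monocyte and macrophage genes were split. Of 22 monocyte genes, 11 were higher and 4 lower, with a median of 0.31. Ly6c2, the surface protein that marks inflammatory monocytes, was at 0.46 (SE 0.076, edgeR adjusted p 1.1e-04), whereas the chemokine receptor gene Ccr2 was at −0.11 (SE 0.086, edgeR adjusted p 0.36) and was not called. Fn1, which encodes the matrix protein fibronectin, had CPM levels of 804, 816 and 788 in WT Ctrl, 882, 808 and 824 in WT IR, 919.7, 921 and 933 in cKO Ctrl and 504, 502 and 499 in cKO IR. WT Ctrl and WT IR overlapped, all cKO IR libraries lay below all others, and the interaction of −0.94 (SE 0.044, edgeR adjusted p 1.6e-11) was the lowest of any abundant gene outside the mitochondrial genome. Of 35 macrophage genes, 7 were higher and 7 lower, with a median of 0.083. With the length offset 8 macrophage genes were higher and 10 lower, with a median of −0.058. The scavenging receptors Mrc1 (−0.57, SE 0.067, edgeR adjusted p 2.4e-06) and Siglec1 (−0.43) and the phagocytic receptor Mertk (−0.43) were lower, while Adgre1 (0.012), Apoe (0.094) and C1qa (0.10) were not called.

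Chemokine ligands, which draw leukocytes into tissue, had 15 of 23 tested genes called higher and 1 lower, with a median of 0.44. Their median irradiation effect was 0.20 in WT and 0.61 in cKO. Ccl2, the ligand of CCR2, had CPM levels of 4.32, 4.51 and 3.84 in WT Ctrl, 3.08, 2.65 and 2.55 in WT IR, 8.74, 9.24 and 9.08 in cKO Ctrl and 12.9, 11.1 and 12.2 in cKO IR. It fell in WT by 0.61 and rose in cKO by 0.42, without overlap between Ctrl and IR in either genotype, and the interaction was 1.03 (SE 0.14, edgeR adjusted p 8.9e-06). Ccl17 rose by 0.50 in WT and by 1.19 in cKO, with an interaction of 0.70 (SE 0.086, edgeR adjusted p 3.9e-06), and Ccl4 was at 0.69 (SE 0.12, edgeR adjusted p 1.7e-04). The interferon-induced Cxcl10 had CPM levels of 2.30 (Ctrl) and 0.991 (IR) in WT and 4.05 (Ctrl) and 3.69 (IR) in cKO (means), with an interaction of 1.08 (SE 0.20, edgeR adjusted p 3.5e-04). With the same offset 7 chemokine ligands were higher and 4 lower, and Ccl17 (0.17) and Ccl4 (0.22) were no longer called. Of 14 chemokine receptors, 3 were higher and 1 lower.

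Among 25 inflammatory cytokine genes, 7 were higher and 2 lower, with a median of 0.088. Il1b was at 0.34 (SE 0.052, edgeR adjusted p 4.0e-05), Il6 at 0.47 (SE 0.14, edgeR adjusted p 0.016) and Tnf at 0.27 (SE 0.048, edgeR adjusted p 2.4e-04), whereas the antagonist gene Il1rn was at 0.11 (adjusted p 0.23) and not called by edgeR. Under that offset Il1b (0.12), Il6 (0.32) and Tnf (0.0032) were no longer called, and 2 members were higher and 4 lower. Of 29 immunosuppressive effector genes, 6 were higher and 6 lower, and 2 and 7 under the offset. The inhibitory receptor gene Lilrb4a had CPM levels of 28.9, 27.8 and 29.0 in WT Ctrl, 33.3, 36.0 and 35.9 in WT IR, 44.4, 41.8 and 43.3 in cKO Ctrl and 32.9, 28.2 and 25.6 in cKO IR. Its level rose in WT and fell in cKO, and the interaction was −0.88 (SE 0.10, edgeR adjusted p 9.6e-07). Havcr2, which encodes the checkpoint receptor TIM-3, was at −0.53 (SE 0.15, edgeR adjusted p 0.0097). Cyba, a subunit of the phagocyte NADPH oxidase, was at 0.62 (SE 0.064, edgeR adjusted p 5.1e-07). Cd274 (−0.16), Arg1 (0.069) and Nos2 (−0.033), which encode PD-L1, arginase and nitric oxide synthase, were not called.

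Antigen presentation genes gave small values. Of 24 MHC class I genes, 11 were higher and 4 lower, with a median of 0.12, and of 14 MHC class II genes 4 were higher and 2 lower. The length offset turned these counts to 6 higher and 5 lower for class I and to 2 higher and 4 lower for class II. The immunoproteasome genes Psmb9 (0.46, SE 0.083, edgeR adjusted p 2.6e-04) and Psmb8 (0.41) were higher, and the nonclassical H2-T24 was at 0.63 (SE 0.14, edgeR adjusted p 0.0013). H2-K1 (0.0065), B2m (0.060) and Tap1 (−0.052) were not called. H2-Ab1, a chain of the class II molecule, had CPM levels of 1156, 1187 and 1152 in WT Ctrl, 982, 931 and 933 in WT IR, 1429.8, 1398 and 1449 in cKO Ctrl and 1439, 1453 and 1474 in cKO IR. It fell in WT without overlap, its cKO values overlapped, and the interaction was 0.33 (SE 0.040, edgeR adjusted p 3.3e-06). Cd74, the invariant chain, was at −0.14 (SE 0.051, edgeR adjusted p 0.039) and was called in 3 of the 12 fits that left out 1 library.

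Of 25 NF-kB subunits and kinases, 3 were higher and 12 lower, with a median of −0.19. NF-kB is the family of transcription factors that drives inflammatory genes. Rel, a subunit of this family, had CPM levels of 150.2, 148 and 151 in WT Ctrl, 209, 240.4 and 224 in WT IR, 153, 157 and 156 in cKO Ctrl and 184, 178 and 174 in cKO IR. It rose by 0.58 in WT and by 0.20 in cKO without overlap in either, and the interaction was −0.38 (SE 0.058, edgeR adjusted p 4.7e-05). Rela was at −0.30 (SE 0.056, edgeR adjusted p 3.4e-04) and Nfkb1 at −0.26 (SE 0.042, edgeR adjusted p 6.2e-05), the latter at −0.0097 with the length offset. The ubiquitin ligase genes Traf6 (−0.42) and Traf3 (−0.36) were also lower. Of 26 NF-kB inhibitor genes, 4 were higher and 6 lower. Tnip3, which restrains signalling through A20, was at 0.38 (SE 0.046, edgeR adjusted p 3.2e-06), Tnfaip3, which encodes A20, at −0.17 (SE 0.042, edgeR adjusted p 0.0048), and Nfkbia, which encodes the inhibitor IkBa, at 0.21 (SE 0.052, edgeR adjusted p 0.0039). The last of these turned to −0.057 with the length offset and was not called, and Tnfaip3 was then at −0.028 and not called.

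Immediate early genes, transcription factors that respond to stimuli within minutes, had 2 of 32 higher and 10 lower. Nr4a3, an orphan nuclear receptor gene, had CPM levels of 237, 240.3 and 235 in WT Ctrl, 369, 363 and 355 in WT IR, 241, 244 and 245 in cKO Ctrl and 253, 248 and 252 in cKO IR. It rose in WT without overlap while the cKO groups lay close to each other, and the interaction was −0.57 (SE 0.042, edgeR adjusted p 1.3e-08). Egr1 was at −0.51 (SE 0.14, edgeR adjusted p 0.0074) and Zfp36l1, which encodes an mRNA decay factor, at −0.46 (SE 0.066, edgeR adjusted p 2.0e-05), whereas Atf3 was at 0.23 (SE 0.053, edgeR adjusted p 0.0019). Under the length offset none was higher and 16 were lower. Of 21 Toll-like receptor and adaptor genes, 2 were higher and 5 lower, with Tlr9 at −0.56 (SE 0.083, edgeR adjusted p 3.3e-05) and the lipopolysaccharide co-receptor gene Cd14 at 0.28 (SE 0.050, edgeR adjusted p 2.6e-04). Under the length offset 0 of this class were higher and 7 lower, so that Cd14 was no longer called higher. Of 23 Fc receptor and phagocytosis genes, 8 were higher and 8 lower, and 2 and 9 under the length offset, with the scavenger receptor gene Stab1 at −0.65 (SE 0.064, edgeR adjusted p 3.2e-07) and the high-affinity IgG receptor gene Fcgr1 at 0.51 (SE 0.10, edgeR adjusted p 4.1e-04).

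Mitosis genes fell after irradiation, all 60 tested in WT and 55 in cKO, and in the interaction 42 were higher and 1, Mki67, was lower. The median interaction of the class was 0.43, and its median effects were −1.48 in WT and −1.08 in cKO. Birc5, a subunit of the chromosomal passenger complex, had CPM levels of 21.9, 21.9 and 21.6 in WT Ctrl, 5.95, 5.54 and 5.55 in WT IR, 18.4, 18.6 and 18.9 in cKO Ctrl and 11.3, 10.2 and 10.97 in cKO IR. The 4 groups did not overlap, with falls of 1.94 in WT and 0.79 in cKO and an interaction of 1.15 (SE 0.090, edgeR adjusted p 2.0e-08). Ccnb1, which encodes cyclin B1, was at 0.74 (SE 0.10, edgeR adjusted p 2.0e-05), the kinase gene Aurka at 0.93 (SE 0.13, edgeR adjusted p 1.7e-05) and Cdk1, the kinase that starts mitosis, at 0.64 (SE 0.11, edgeR adjusted p 1.3e-04). Top2a was at 0.34 (SE 0.059, edgeR adjusted p 1.9e-04). Mki67, the proliferation marker, had CPM levels of 313, 313 and 317 in WT Ctrl, 134, 131 and 127 in WT IR, 273, 271 and 266 in cKO Ctrl and 102, 101 and 102 in cKO IR, and its interaction was −0.14 (SE 0.044, edgeR adjusted p 0.021). Its exons cover 10061 bases, and with the length offset its value turned to 0.075 and was not called. The offset left 42 mitosis genes higher and none lower.

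The CCAAT box, bound by NF-Y, is common in promoters of mitosis genes, and 100 of the 250 bases before the start are shown for cyclin B1, Aurora A and Cdk1 as members with a called positive interaction. Capitals mark CCAAT on either strand, and 1 more match of Cdk1 lies outside the window.
Ccnb1: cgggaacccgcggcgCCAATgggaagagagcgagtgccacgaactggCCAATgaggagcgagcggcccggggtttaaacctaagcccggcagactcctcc
Aurka: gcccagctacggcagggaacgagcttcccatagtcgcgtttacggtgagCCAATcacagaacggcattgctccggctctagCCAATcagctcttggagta
Cdk1: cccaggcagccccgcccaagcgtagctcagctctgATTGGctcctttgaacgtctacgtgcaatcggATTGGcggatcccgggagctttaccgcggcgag
These RefSeq windows lie at chr13:100786501-100786600 for Ccnb1, chr2:172370571-172370670 for Aurka and chr10:69352928-69353027 for Cdk1, all on the minus strand of GRCm38.p6. A CCAAT was found within 250 bases before the start of 35 of 50 mitosis genes with a promoter (70.0%). The share was 37.5% of all 27025 genes and 40.3% of 10745 tested genes with a promoter. It was present in 24 of 34 members called higher (70.6%) and in 10 of 15 not called (66.7%).

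Replication and histone genes showed the same direction. Of 51 DNA replication genes, 20 were higher and 1 lower, with a median of 0.31. Tyms, which encodes thymidylate synthase, had CPM levels of 9.51, 9.995 and 9.66 in WT Ctrl, 5.59, 5.39 and 5.49 in WT IR, 9.51, 9.13 and 9.49 in cKO Ctrl and 8.70, 9.31 and 10.1 in cKO IR. It fell in WT without overlap and its cKO values overlapped, with an interaction of 0.83 (SE 0.11, edgeR adjusted p 8.6e-06). The replication fork genes Cdc45 (0.89, SE 0.21, edgeR adjusted p 0.0024) and Pcna (0.35, SE 0.060, edgeR adjusted p 1.6e-04) were higher, and Mcm2, a subunit of the replicative helicase, was at 0.020 (SE 0.082, edgeR adjusted p 0.89) and not called. Of 66 histone genes, 23 were higher and none lower. Their median of 0.84 is based on many low counts and on genes with near-identical copies, whose reads could have been divided between copies in the counting. These genes are short, with a median exonic length of 593 bases over the class. With the length offset 13 histone genes were higher and none lower, with a median of 0.51. H2afz, a histone variant gene with a polyadenylated transcript, had CPM levels of 191, 198 and 188 in WT Ctrl, 144, 122 and 136 in WT IR, 188, 173 and 185 in cKO Ctrl and 197, 191 and 195 in cKO IR. WT IR lay below the other 3 groups, the cKO groups lay close together, and the interaction was 0.61 (SE 0.067, edgeR adjusted p 1.0e-06).

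Targets of p53 rose in both genotypes. Of 35 p53 targets, 25 rose in WT and 26 rose in cKO, and 6 were higher and 5 lower in the interaction, with a median of 0.033. Cdkn1a, which encodes the cell cycle inhibitor p21, had CPM levels of 88.0, 86.5 and 87.2 in WT Ctrl, 196, 199 and 201 in WT IR, 95.3, 97.9 and 99.0 in cKO Ctrl and 204, 202 and 204 in cKO IR. Every irradiated library was above every untreated one, with rises of 1.19 in WT and 1.06 in cKO, and the interaction of −0.13 (SE 0.045, edgeR adjusted p 0.038) was called in 3 of the 12 fits that left out 1 library. Mdm2, which encodes the ubiquitin ligase for p53, rose by 0.55 and 0.62, and its interaction of 0.076 (SE 0.051, edgeR adjusted p 0.30) was not called. Bax (0.41, SE 0.085, edgeR adjusted p 0.001) and Fas (0.36, SE 0.067, edgeR adjusted p 3.3e-04), genes of cell death, were higher, and Zmat3, which encodes an RNA-binding protein, was lower at −0.35 (SE 0.079, edgeR adjusted p 0.0016). Under the offset Bax, Fas and Zmat3 were not called. Of 49 genes of DNA break repair and checkpoints, 1 was higher and 7 lower. The lower ones included the kinase genes Atr (−0.53, SE 0.085, edgeR adjusted p 8.3e-05), Prkdc (−0.41, SE 0.10, edgeR adjusted p 0.005) and Atm (−0.36, SE 0.10, edgeR adjusted p 0.0072), which are long transcripts, and with the length offset these 3 were not called and the class had 7 higher and 4 lower.

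Transcripts of the mitochondrial genome showed the lowest interaction of any class. Of 13 protein-coding transcripts, 10 were lower and none higher, with a median of −1.13. Their median effect was 0.31 in WT, where 7 rose and none fell, and −0.81 in cKO, where 1 rose and 10 fell. mt-Nd4, a subunit of respiratory complex I, had CPM levels of 626, 625 and 646 in WT Ctrl, 672, 888 and 785 in WT IR, 741, 744 and 715 in cKO Ctrl and 407, 371 and 371 in cKO IR. All cKO IR libraries lay below all others, the WT IR libraries were spread from 672 to 888, and the interaction was −1.24 (SE 0.089, edgeR adjusted p 1.0e-08). mt-Co1, a subunit of complex IV, was at −1.13 (SE 0.087, edgeR adjusted p 2.0e-08) and mt-Nd6, the one encoded on the opposite strand, at −1.01 (SE 0.063, edgeR adjusted p 1.4e-09). The values of mt-Atp6 (−0.54), mt-Co3 (0.090) and mt-Nd3 (0.073) were not called. The ribosomal RNAs of the organelle moved likewise, with mt-Rnr1 at −1.29 and mt-Rnr2 at −1.15. All 37 genes of the mitochondrial genome summed to 4.69% (Ctrl) and 6.69% (IR) of gene counts in WT and to 5.45% (Ctrl) and 3.54% (IR) in cKO (means, n = 3 each). The difference of the differences for all 37 genes was −3.91 percentage points, which gave an exact permutation p of 0.005 (two-sided, treatment labels permuted within genotype, the smallest p possible) and 0.065 after adjustment over 13 lists. The null here is no irradiation effect in either genotype, so that an effect in 1 or both genotypes can also give a small p.

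Nuclear genes of the same respiratory chain moved in the opposite direction. Of 79 tested, 67 were higher and 1 lower, with a median of 0.45 and median effects of −0.10 in WT and 0.37 in cKO. Cox7b, a subunit of complex IV, had CPM levels of 102, 105 and 99.96 in WT Ctrl, 98.1, 83.95 and 93.3 in WT IR, 98.7, 94.9 and 96.9 in cKO Ctrl and 156, 147 and 144 in cKO IR. The cKO IR libraries lay above all others, and the interaction was 0.78 (SE 0.067, edgeR adjusted p 6.6e-08). Atp5e, a subunit of the ATP synthase, was at 0.88 (SE 0.080, edgeR adjusted p 1.2e-07) and Ndufa4 at 0.80 (SE 0.12, edgeR adjusted p 2.9e-05). These transcripts are short, with a median exonic length of 1718 bases over the class, and with the length offset 31 were higher and 1 lower, with a median of 0.14.

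Cytosolic ribosomal protein genes had the highest share of called members, with 74 of 80 higher and none lower and a median of 0.54. Their sum, as a share of gene counts, was 3.75% ± 0.0249 (Ctrl) and 3.71% ± 0.191 (IR) in WT and 3.69% ± 0.0168 (Ctrl) and 5.33% ± 0.0780 (IR) in cKO (SD, n = 3 each). Rps12 had CPM levels of 255, 264 and 251 in WT Ctrl, 247, 239 and 250.4 in WT IR, 255, 249.8 and 251 in cKO Ctrl and 402, 422 and 411 in cKO IR. The cKO IR libraries lay above all others, which lay close together, and the interaction was 0.77 (SE 0.045, edgeR adjusted p 6.0e-10). Rplp0, a protein of the ribosomal stalk, was at 0.60 (SE 0.10, edgeR adjusted p 1.1e-04) and Rpl3 at 0.33 (SE 0.037, edgeR adjusted p 1.3e-06). With the length offset 55 were higher and none lower, with a median of 0.29. Ribosomal protein genes have many processed pseudogenes of near-identical sequence, and 1049 tested processed pseudogenes had a median interaction of 0.31, with 105 called higher, 10.01% beside 15.0% over all genes, and 11 lower. The length offset turned these to 4 higher and 44 lower, with a median of −0.15. How reads were divided between genes and pseudogenes was not tested.

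**Figure D3:**
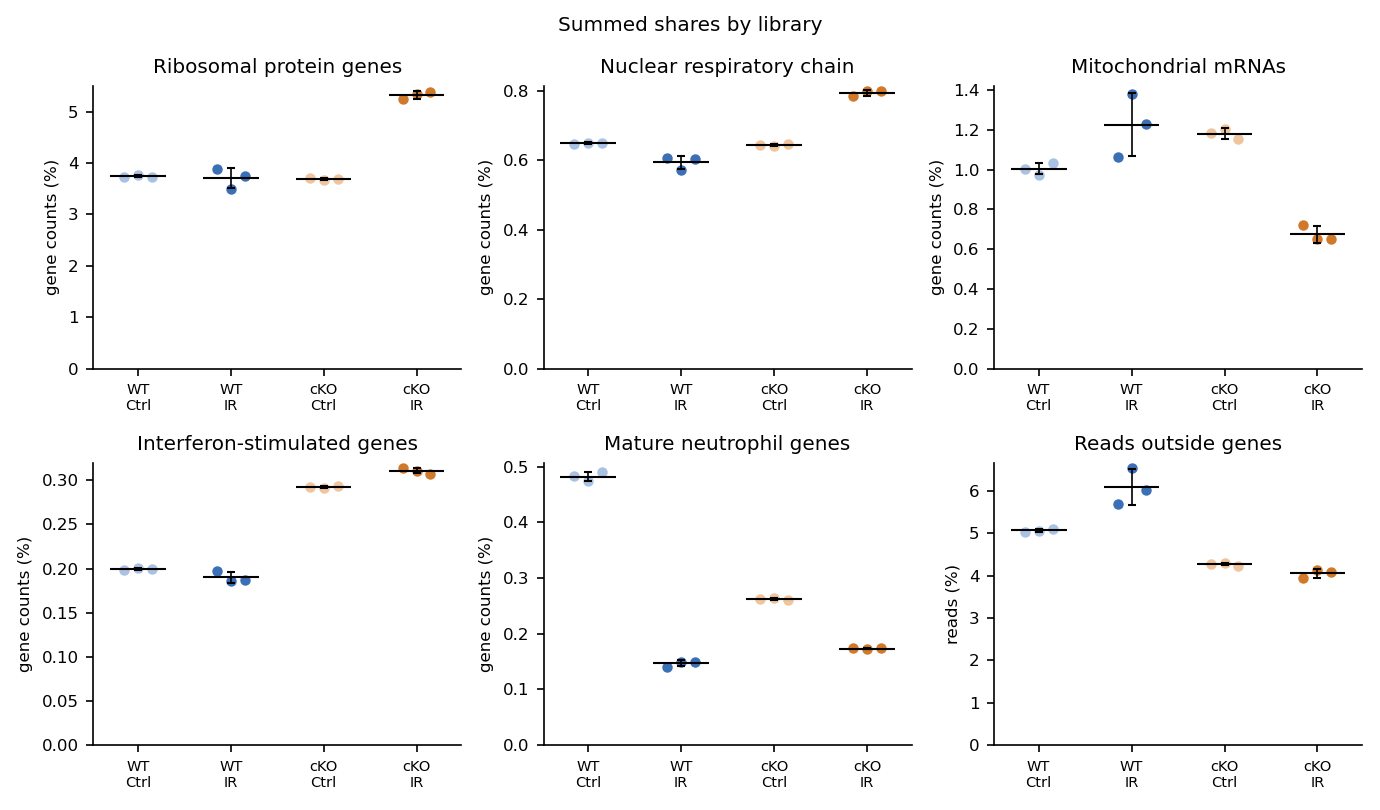
Summed share of gene counts (y axis, percent, from 0) of 5 gene classes, and share of reads outside annotated genes, in the 4 groups (x axis), with 1 point per library, the mean as a line and the SD as an error bar (n = 3). Ribosomal protein and nuclear respiratory chain genes were highest in cKO IR, mitochondrial mRNAs were lowest there, and WT IR had the highest share of reads outside genes.

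Protein turnover and translation genes followed in part. Of 38 proteasome subunit genes, 32 were higher and none lower, with a median of 0.36, and 24 were higher with the length offset. Psma6 had CPM levels of 132, 128 and 137 in WT Ctrl, 123, 137 and 138 in WT IR, 152, 151 and 147 in cKO Ctrl and 225, 235 and 227 in cKO IR. The WT groups overlapped, and cKO IR lay above all others, with an interaction of 0.61 (SE 0.059, edgeR adjusted p 2.5e-07). Of 65 translation factors, 28 were higher and 13 lower. The elongation factor subunit gene Eef1b2 was at 0.60 (SE 0.066, edgeR adjusted p 9.6e-07) and the initiation factor gene Eif2s1 at 0.58 (SE 0.046, edgeR adjusted p 2.0e-08), whereas Eef2 was lower at −0.21 (SE 0.048, edgeR adjusted p 0.0019). Of 21 aminoacyl-tRNA synthetase genes, 2 were higher and 6 lower, with Dars at 0.37 (SE 0.058, edgeR adjusted p 6.5e-05) and Iars at −0.41 (SE 0.088, edgeR adjusted p 0.0012). Of 30 unfolded protein and heat shock genes, 9 were higher and 4 lower, with the chaperonin partner gene Hspe1 at 0.61 (SE 0.067, edgeR adjusted p 1.2e-06).

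Metabolic and stress genes gave smaller and mixed values. Of 24 NRF2 target genes, which protect from oxidants, 10 were higher and 2 lower. Prdx1, a peroxiredoxin gene, had CPM levels of 2539.7, 2642 and 2645 in WT Ctrl, 3265, 2987 and 3018 in WT IR, 2389, 2368 and 2442 in cKO Ctrl and 4844, 4144 and 4156 in cKO IR. It rose in both genotypes without overlap, by 0.24 in WT and by 0.87 in cKO, with an interaction of 0.62 (SE 0.064, edgeR adjusted p 5.1e-07). Of 30 haem and iron genes, 9 were higher and 2 lower, with Hp, which encodes haptoglobin, at 0.68 (SE 0.069, edgeR adjusted p 4.4e-07) and the ferritin gene Fth1 at 0.16 (SE 0.033, edgeR adjusted p 7.4e-04). Of 43 glycolysis and hypoxia genes, 11 were higher and 7 lower. Hk2, which encodes hexokinase 2, was at −0.46 (SE 0.061, edgeR adjusted p 1.0e-05) and Vegfa, which encodes an angiogenic factor, at −0.32 (SE 0.059, edgeR adjusted p 3.0e-04), and with the length offset the class had 3 higher and 5 lower. Of 29 cholesterol genes, 5 were higher and 9 lower. Abca1, a cholesterol exporter gene, had CPM levels of 324, 324 and 331 in WT Ctrl, 446, 451 and 448 in WT IR, 427, 429.7 and 425 in cKO Ctrl and 349, 342 and 339 in cKO IR. It rose by 0.46 in WT and fell by 0.31 in cKO without overlap in either genotype, with an interaction of −0.77 (SE 0.039, edgeR adjusted p 5.7e-11). Of 37 lysosome genes, 9 were higher and 8 lower, and 7 and 15 under the length offset, with Man2b1, a mannosidase gene, at −0.45 (SE 0.049, edgeR adjusted p 9.5e-07) and Ctsk, a cathepsin gene, at 0.52 (SE 0.10, edgeR adjusted p 4.3e-04).

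Outside the mitochondrial genome the 8 lowest abundant genes, chosen after their values were seen, were Fn1, Lilrb4a, Uvssa, Zfhx2, Nfix, Abca1, Hivep3 and Ksr2. Nfix, a nuclear factor I transcription factor gene, had CPM levels of 27.2, 27.0 and 25.4 in WT Ctrl, 28.8, 30.8 and 32.1 in WT IR, 33.3, 32.5 and 32.1 in cKO Ctrl and 21.0, 22.3 and 22.2 in cKO IR, with an interaction of −0.78 (SE 0.075, edgeR adjusted p 2.5e-07). Zfhx2, a homeobox gene, rose by 0.76 in WT and was at −0.030 in cKO, with an interaction of −0.79 (SE 0.062, edgeR adjusted p 2.3e-08). Uvssa, a gene of transcription-coupled DNA repair, was at −0.80 (SE 0.13, edgeR adjusted p 6.2e-05), Hivep3 at −0.75 (SE 0.058, edgeR adjusted p 2.0e-08) and Ksr2 at −0.75 (SE 0.079, edgeR adjusted p 7.2e-07). Their exonic lengths ran from 5227 to 18166 bases, and all 8 were still lower with the length offset, at −0.82 for Lilrb4a and −0.70 for Fn1. Of 323 Zfp zinc finger genes, 10 were higher and 52 lower, 16.1% called lower beside 15.2% over all genes, with Zfp366 at −0.68 (SE 0.066, edgeR adjusted p 2.9e-07). Under the length offset 14 of this family were higher and 30 lower. Of 219 solute carrier genes 14 were higher and 45 lower, and 15 and 27 under the length offset, with Slc22a23 at −0.60 (SE 0.062, edgeR adjusted p 4.6e-07). Of 47 integrin and tetraspanin genes, 9 were higher and 9 lower. Itgam, which encodes CD11b, the protein used for the sort, had CPM levels of 379, 389.8 and 391 in WT Ctrl, 416, 415 and 404 in WT IR, 392, 392 and 404 in cKO Ctrl and 340.5, 342 and 328 in cKO IR, with an interaction of −0.32 (SE 0.043, edgeR adjusted p 7.9e-06).

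Of 21 m6A writer, eraser and reader genes, which had a median exonic length of 6584 bases, 3 were higher and 7 lower, with a median of −0.17. The length offset turned these counts to 5 higher and 3 lower, with a median of −0.058. The writer complex gene Zc3h13 had CPM levels of 120.4, 127 and 122 in WT Ctrl, 149, 120.3 and 128 in WT IR, 109.6, 112 and 116 in cKO Ctrl and 84.3, 83.3 and 78.5 in cKO IR. Its cKO IR libraries lay below all others, and the interaction was −0.56 (SE 0.080, edgeR adjusted p 2.1e-05). The writer partner gene Rbm15 was at −0.49 (SE 0.074, edgeR adjusted p 4.1e-05) and Wtap, another writer subunit, at 0.28 (SE 0.052, edgeR adjusted p 3.3e-04). The methyltransferase gene Mettl3 (−0.11) and the reader genes Ythdf1 (−0.088) and Ythdf3 (−0.11) were not called. Of 53 deadenylation and decay genes, 6 were higher and 25 lower (47.2%, beside 15.2% over all genes and 39.0% in the fifth of highest level), with a median of −0.17. Ago2, the slicing Argonaute gene, was at −0.50 (SE 0.048, edgeR adjusted p 2.5e-07), Cnot1, the scaffold of CCR4-NOT, at −0.35 (SE 0.055, edgeR adjusted p 5.8e-05), and Edc4, a decapping scaffold gene, at −0.44 (SE 0.065, edgeR adjusted p 2.9e-05). With the length offset 5 were higher and 14 lower and Cnot1 was at −0.015, no longer called.

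Genes with an m6A peak were compared with the others, since YTHDF2 acts on m6A. Peaks were the authors' calls in the 3 unirradiated WT antibody libraries, kept where all 3 lists shared them, which left 12594 peaks in 4999 genes. Of 4508 tested protein-coding genes with a peak, 1158 were higher (25.7%) and 686 lower (15.2%), with a median of 0.072. Of 8314 without one, 1088 were higher (13.1%) and 1646 lower (19.8%), with a median of −0.047. The genes with a peak had a median level of 27.6 CPM and the others of 13.9 CPM, and their median exonic lengths were 4209.5 and 4573 bases. The median of genes with a peak was above that of genes without one in each of 5 bins of exonic length. With the length offset the medians were 0.053 and −0.021.

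Across protein-coding genes the interaction followed the exonic length of the gene, the union of its annotated exons. In the fifth of the genes with the shortest exons (median 1730 bases), 974 of 2565 were higher and 34 lower, with a median of 0.28. In the fifth with the longest exons (median 9832 bases), 108 were higher and 1156 lower, with a median of −0.22. The median irradiation effect ran from −0.057 to 0.053 in WT and from 0.21 to −0.16 in cKO between these bins. As a description over 12822 genes, which are not independent replicates and share the 12 libraries, Spearman's rho with length was −0.45 and Pearson's r with log2 length was −0.31, and rho with GC content was −0.083. A fit with an offset for length, estimated per library and chosen after the data were seen, called 3394 genes, 1818 higher and 1576 lower, and rho with length was then 0.0057. The relation to GC content grew in the same fit, to a rho of −0.26. The fifth of the genes with the lowest GC content then had 595 higher and 101 lower, and the fifth with the highest had 127 higher and 464 lower. The share of reads outside genes, which was highest in WT IR, moved with the same groups, and the median interaction was −0.49 for 601 genes of type TEC, which the annotation holds as unproven, and −0.45 for 76 sense intronic genes. The part of these reads in the relation to length was not tested.

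**Figure D4:**
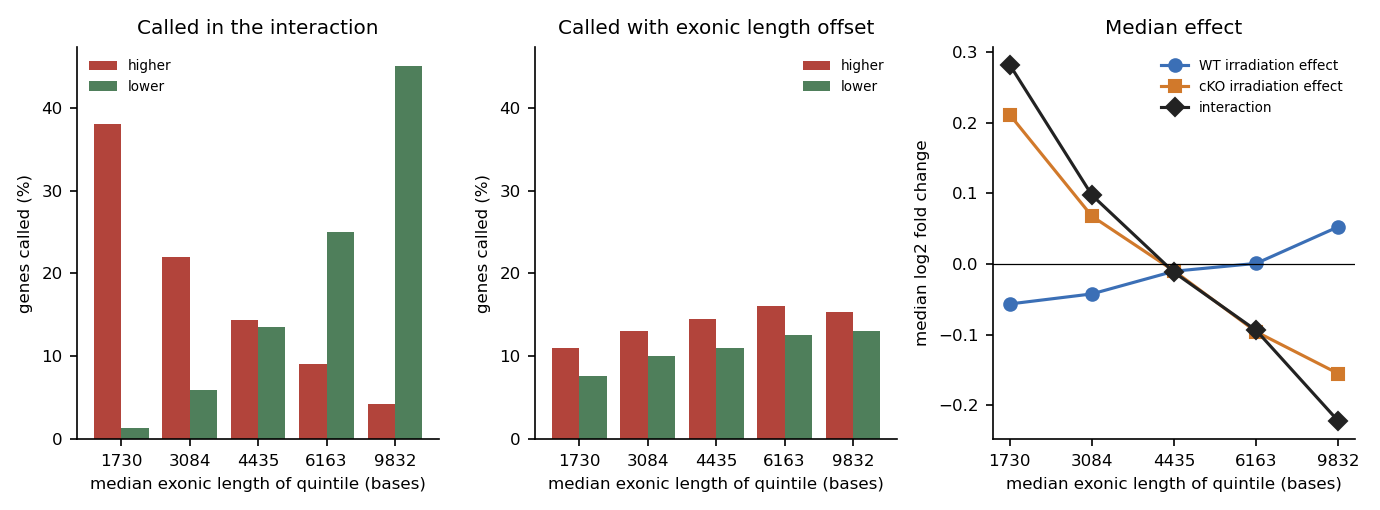
Protein-coding genes in 5 bins of exonic length (x axis, median length in bases), with the percentage of genes called higher or lower in the interaction (left, y axis from 0), the same with the length offset (middle), and the median log2 irradiation effects and interaction (right). In the shortest bin 974 genes were higher and 34 lower, in the longest bin 108 and 1156, and with the offset 282 and 194 in the shortest and 393 and 334 in the longest bin.

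**Figure D5:**
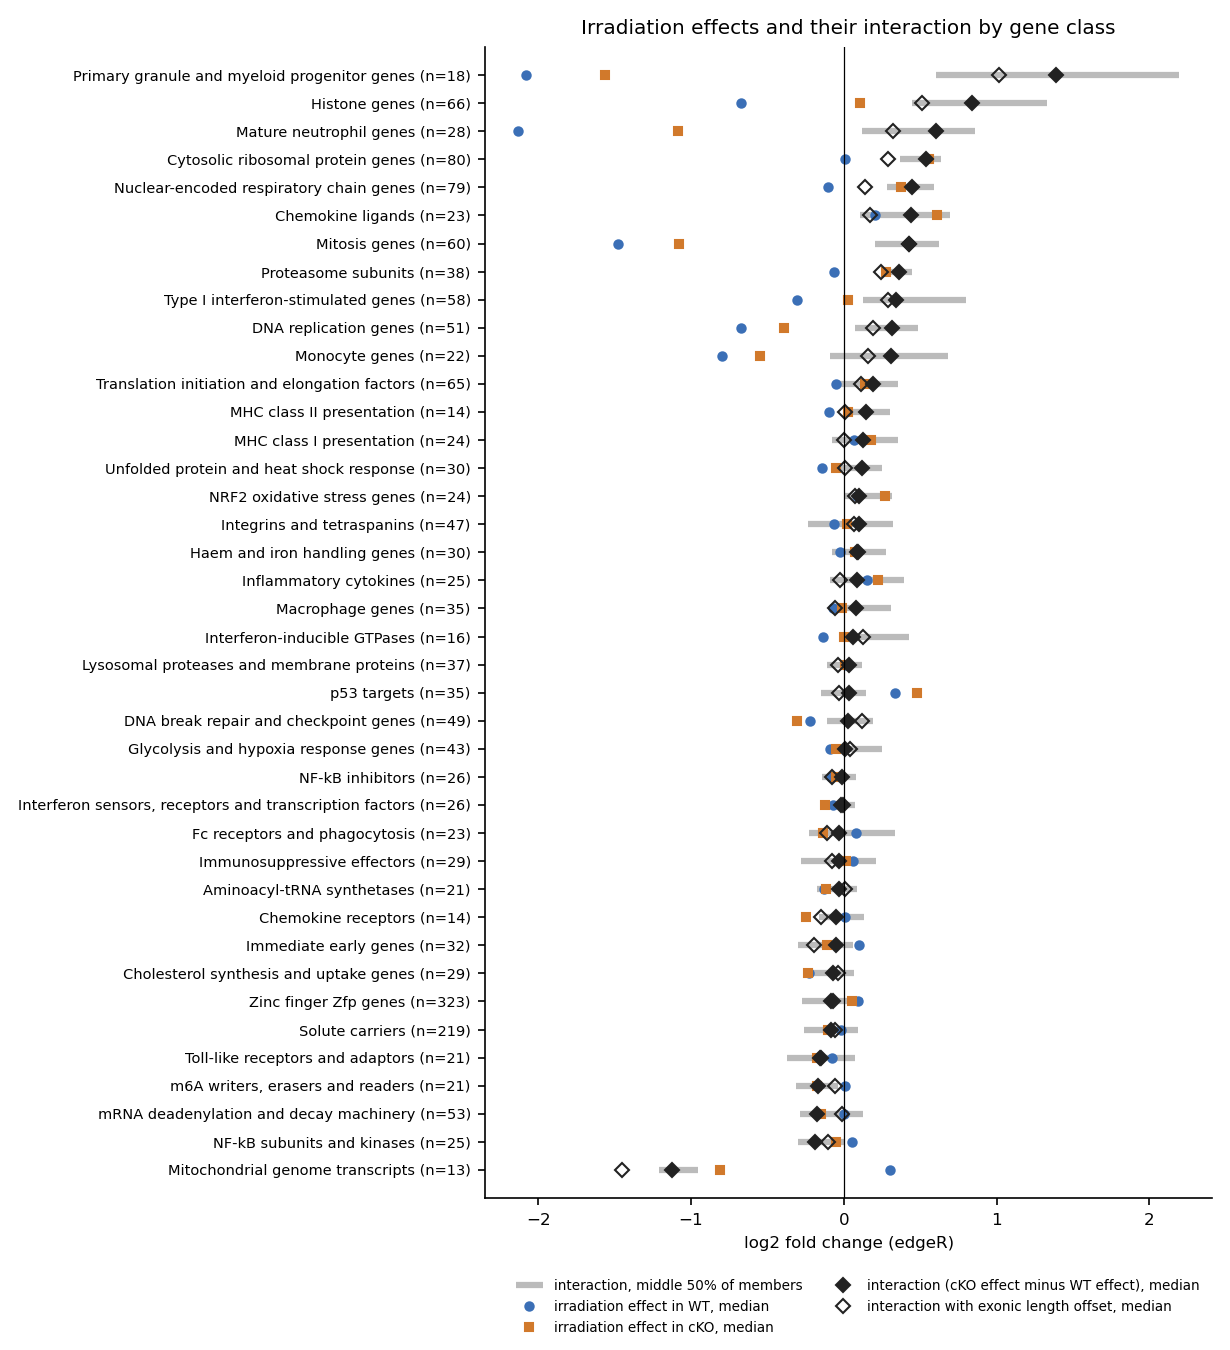
Median log2 irradiation effect in WT (circles) and cKO (squares) and median interaction (filled diamonds) for 40 gene classes (y axis, with the number of genes tested), with bars for the middle 50% of members and open diamonds for the interaction with the length offset. Primary granule genes, of which 7 of 18 held under 30 counts in a group, had the highest median (1.39, and 1.01 with the offset) and mitochondrial genome transcripts the lowest (−1.13).

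The length offset bears on how the classes are read, as the plot of class medians shows. The median of mitosis genes was 0.43 with and without it, and that of interferon-stimulated genes was 0.29 with it, with 30 higher and 2 lower. The class medians of MHC class I (0.00094), MHC class II (0.0077) and inflammatory cytokine genes (−0.022) were near 0 with it. The median of mitochondrial genome transcripts was −1.45 with it.

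Some genes passed the test with under 30 counts in a group, and these are given by counts summed over the 3 libraries of a group, in the order Ctrl and IR of WT followed by Ctrl and IR of cKO, with no fold. The erythroid genes Hbb-bs (1, 2687, 3 and 0 counts), Hba-a1 (1, 1407, 1 and 1) and Alas2 (4, 438, 2 and 1) were found almost only in WT IR, in all 3 of its libraries, and each was called in 8 of the 12 fits that left out 1 library. Reads of Hba-a1 can be shared with its near-identical copy. Of the primary granule genes, Mpo, which encodes myeloperoxidase, stood at 7696, 6, 2586 and 11 counts and Elane, which encodes neutrophil elastase, at 2282, 0, 648 and 3, called in 9 and 5 of these fits. The eosinophil granule gene Prg2 stood at 2522, 15, 1188 and 19 counts and was called in 4. The monocyte chemokine genes Ccl7 (74, 28, 178 and 281) and Ccl12 (18, 0, 15 and 77) had lower counts in WT and higher counts in cKO after irradiation, and both were called in all 12 fits that left out 1 library. A count of 0 over a group allows up to 3 counts, and for counting error only.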

How the data were processed

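Polyadenylated Input RNA of 12 libraries (4 groups of 3) was analysed, and the 12 libraries of the m6A pull-down were used here only through the peak lists of unirradiated WT. Reads were trimmed by the authors with Trimmomatic 0.39, aligned to mm10 with HISAT as strand-specific pairs, and counted per GENCODE gene, and the deposited counts are raw whole numbers for 54446 identifiers. Reads in lines that name no gene (outside genes 3.95 to 6.55%, ambiguous 2.19 to 2.58%) were left out of library sizes and tests. Deposited peak lists give MACS2 peaks with their fold enrichment (a ratio), and these values were not used here beyond the peak positions, which had to overlap by at least 1 base in all 3 lists. Positions, exonic length and gene type came from GENCODE vM21 for 54409 identifiers, and promoters from RefSeq on GRCm38.p6.

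Genes that reached 10 counts in 3 or more libraries were fitted with edgeR 4.0.16 in R 4.3.3 (TMM scaling, quasi-likelihood, 1 coefficient per group), and the interaction and both irradiation effects were taken from this fit, so that they share libraries. The p-values were adjusted over all 16090 genes. The common biological coefficient of variation was 5.57%. Summed marker shares were tested by exact permutation of treatment labels within genotype, two-sided. The null of that test is no irradiation effect in either genotype, which is wider than no interaction. The pipeline was tested on simulated counts for the interaction over 16090 genes. It recovered 50.7% of 67 genes changed by 0.5 log2, 79.1% of 67 changed by 1 log2 and 66.7% of 66 changed by 2 log2. There were 4 false calls among the unchanged genes, which had 1 mean in all groups and no relation to length. The real counts differ in this, so that the 4 false calls do not measure those in the real data. In a further simulation with a length trend in cKO IR, more unchanged genes were called without the length offset than with it.

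Named genes were the 8 highest and 8 lowest called protein-coding genes with a mean of at least 5 CPM, at least 30 counts in each group and the same call in all 12 fits without 1 library, up to 3 such genes per class, and set anchor genes of each of the 40 classes. Members, classes and lists were chosen with earlier results of these data known. The alternatives were DESeq2 1.42.0, limma 3.58.1 (voom), other scalings and count filters, the replicate number as a block, leaving out each library, and, added after the data were seen, an offset for exonic length estimated per library. Depth was 65180075 to 83661576 gene counts per library. PCR copies were not marked by molecular identifiers, so that intervals and floors cover counting error only.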

Additional observations from a re-analysis of the deposited data

Results flagged for a closer look

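A called gene of the interaction is one whose irradiation effect was estimated to differ between the genotypes, and 4861 genes were called by edgeR. Some of these calls can be false, and 3665 held in all 12 fits that left out 1 library. The 16 with the largest values under the rule for named genes are listed here. The interaction was positive, an irradiation effect higher in cKO than in WT, for Wfdc21 (2.095 on the log2 scale), Fcnb (1.62), Lcn2 (1.53), Slfn1 (1.53), Isg15 (1.52), Lrg1 (1.36), Trem3 (1.36) and Upp1 (1.26). It was negative for mt-Nd4 (−1.24), mt-Nd5 (−1.21), mt-Co2 (−1.20), mt-Cytb (−1.18), mt-Co1 (−1.13), mt-Nd1 (−1.05), mt-Nd6 (−1.01) and mt-Nd2 (−0.95). All 16 kept their call and direction in each of the 12 fits that left out 1 library. Groups of 3 libraries are too small for a test of a single library that stands apart, and none was made.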

How the results depend on the processing

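The count of called genes was 4861 and stayed within 1.5 times under every setting run. It was 5092 with DESeq2, 4882 with limma-voom, 4863 with RLE size factors, 4842 without a count filter, 4998 with at least 50 counts, 4831 (2577 higher) with mitochondrial transcripts left out of library sizes and 4887 (2890 higher) with library totals only, which shifted the median of all genes by 0.044. Leaving out 1 library gave 4280 to 5538 calls, the most without WT IR replicate 1. The replicate block gave 4622 calls. Same-numbered libraries had correlations of their deviations of −0.25 to 0.16, so that the numbers share only a name and no pairing was used. With the exonic length offset the genes called lower fell to 1576, and values changed sign for Aars (0.021), B2m (−0.36), C1qa (−0.28), Ciita (0.0043), Metrnl (−0.22), Mki67 (0.075), Nfkbia (−0.057), Tnfaip8l2 (−0.079) and Xrn1 (0.041). The cause was not tested.

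Of the other values of named genes, 1938 kept direction and side of the threshold, 62 were no longer called and 25 were newly called, and in the fits without 1 library 2612 kept them, 83 were no longer called and 17 were newly called. Class counts stayed within 1.5 times in 655 comparisons of settings and moved further in 65, and in the fits without 1 library 865 stayed and 95 moved further. For the summed marker shares, with differences in CPM, the T cell value ranged from −1.16 to −0.526 over the fits without 1 library. Its exact permutation p was 0.145 with all libraries, 0.005 without WT IR replicate 2 and at least 0.115 in the other fits. The NK cell value ranged from 0.305 to 0.577. Its exact permutation p was 0.065 with all libraries, 0.005 without WT Ctrl replicate 2 and 0.04 without cKO Ctrl replicate 3. The erythroid value ranged from −29.1 to −27.9, with an exact permutation p of 0.05 with all libraries. This p was 0.035 without replicate 1 or 3 of cKO Ctrl or replicate 1 or 2 of cKO IR. It was 0.085 without replicate 2 of cKO Ctrl or replicate 3 of cKO IR. The endothelial value ranged from −41.0 to −36.6 (exact permutation p 0.02 with all libraries and at most 0.04 in these fits). The value of the gate markers was 219 with all libraries (exact permutation p 0.76). It ranged from −109 to 558, with −109 without WT IR replicate 2. The gate sum was mostly Lyz2 in WT but not in cKO. Lyz2 held 20586 CPM in WT Ctrl, where the gate sum was 24963 CPM, and 299.8 CPM in cKO Ctrl, where the sum was 5238 CPM. With mitochondrial transcripts left out of the total, the dendritic cell value turned to −31.7 and that of the gate markers to −407. Depth limits genes of low count, and the median SE of 0.12 over all genes was 0.079 from 5 CPM.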
